A study of Mus musculus with 10 samples.

Results

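Histone methyltransferases and demethylases were followed in mouse intestinal organoids, cultures of gut epithelium that form small closed structures. The 49 genes were every autosomal symbol of the array's probe-to-gene table made of Kdm, Kmt, Setd, Setdb, Nsd, Prdm, Ehmt or Suv39h and a digit, out of 19505 genes measured. Each was read by 1 probe set, and 3 further symbols of the X and Y chromosomes were left out by this rule. Total RNA was taken from 5 organoid samples labelled IκBα KO and 5 labelled IκBα WT and hybridised to 1 array each. IκBα, the product of Nfkbia, holds NF-kB transcription factors in the cytoplasm. All 10 samples carried the mark P6, which the labels do not explain. The labels give no strain, no driver of the deletion and no sex. They do not say how many animals or cultures the samples came from, so the spread behind every p-value here may be technical.

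Histone tails carry methyl groups on lysines, and the lysine decides what the mark goes with. Methylation of H3K4 and H3K36 is found at active promoters, enhancers and gene bodies, and methylation of H3K9, H3K27 and H4K20 at silent or compacted chromatin. Enzymes with a SET domain write most of these marks, PRDM proteins join a SET-like PR domain to zinc fingers, and the erasers are flavin-dependent or carry a JmjC domain that needs iron and oxygen. In the mouse gut, Prdm1 is known for holding back the adult enterocyte programme before weaning, and Kdm1a for shaping the maturation of the epithelium after birth.

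Most of these genes showed no change between KO and WT organoids that passed the threshold. Of the 49 genes 2 rose, 4 fell and 43 did not pass (limma, adjusted p under 0.05 over all genes tested). The 6 that passed were 12.2% of the genes, while 26.7% of all tested probe sets passed, 15% higher and 11.7% lower in KO. Only Prdm16 passed with a change over 2-fold, which 11.5% of all tested probe sets did. The median change was 0.05 on the log2 scale, against -0.01 over all tested probe sets, and the median size of a change was 0.19 against 0.21. For 44 genes, or 89.8%, the 95% interval of the change lay inside 1 log2 unit to each side, which held for 78.5% of all tested probe sets. The exceptions were Prdm16, Prdm1, Prdm9, Suv39h2 and Kdm3a. At an unadjusted p under 0.05 (limma) stood 13 of the 49 genes, and 7150 of the 19572 tested probe sets. All changes here are KO minus WT on the log2 scale.

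**Figure D1:**
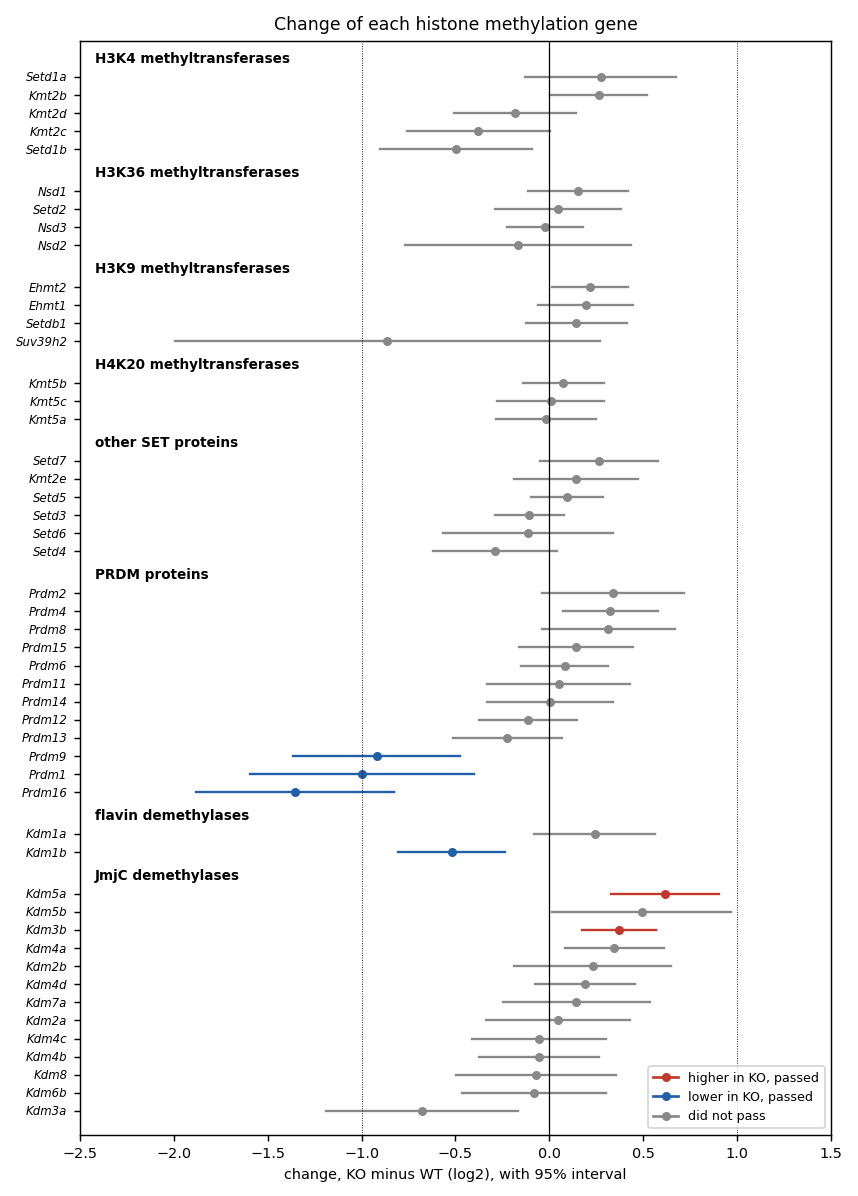
Change of each of the 49 genes, KO minus WT on the log2 scale (x axis), with its 95% interval as a line, grouped by activity. Red marks the 2 genes that rose, blue the 4 that fell and grey the 43 that did not pass; the dotted lines stand at 1 log2 unit to each side of 0.

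The arrays themselves bear on how these values read. Nfkbia stood at 5.06 ± 0.31 in KO and 9.19 ± 0.38 in WT (SD, n = 5 each) and was lower on all 5 KO arrays. The median of the 5222 negative control probe sets was 4.30 to 5.10 over the arrays and their 95th percentile was 7.17 to 7.77. Of the 49 genes 27 lay above this 95th percentile on all arrays, 10 on some and 12 on none, and 9 of those 12 were PRDM genes. Of 8 spike-in probe sets of the labelling kit the median change was -0.52, and of 63 ERCC spike-in probe sets it was -0.12. The part of these spike-in shifts in the changes below was not tested. Epithelial markers did not move as one. Of 13, the junction and keratin genes Cdh1, Cldn3, Tjp1, Krt8 and Krt18 rose, and Vil1, Cldn7, Lgals4 and the gut identity factors Cdx1 and Cdx2 fell. These 10 were 76.9% of the 13, against 26.7% of all tested probe sets that passed. Lgals4 did not pass in 6 of 10 fits with 1 array left out (limma, adjusted p at most 0.0706). Cdx1 averaged 6.30 ± 0.21 in KO, above the 95th percentile of the negative controls on 0 of 5 arrays, and 9.31 ± 0.15 in WT, above it on all 5 (SD, n = 5 each). Krt20 exceeded that percentile on 3 KO and 4 WT arrays, and the other 11 did so on all 10. Of 12 mesenchymal markers 10, of 12 immune markers 9, of 9 endothelial markers 8 and of 7 neuronal and glial markers 7 stayed below the 95th percentile of the negative controls on all 10 arrays. The other 3 immune markers, all myeloid genes, moved between the groups. Adgre1, a further myeloid gene of the list, did not pass (change -0.19, limma, adjusted p = 0.381). Itgam averaged 6.76 ± 0.91 in KO and 5.21 ± 0.24 in WT, Csf1r 6.87 ± 0.54 in KO and 5.35 ± 0.23 in WT, each above the percentile on 1 KO array. Lyz2 averaged 4.61 ± 0.18 in KO, above it on no array, and 8.79 ± 0.28 in WT, above it on all 5 (SD, n = 5 each). The part of these markers in the changes below was not tested.

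The promoters of the genes that fell are shown because they make up the lower side of the result. Each run gives the 250 bases before the start in RefSeq's table (build GRCm38.p6), 5′ to 3′, with CpG dinucleotides in capitals. They lie at chr4:154636874-154637123 on the minus strand for Prdm16, chr10:44458749-44458998 on the minus strand for Prdm1, chr17:15563332-15563581 on the minus strand for Prdm9, the first of its 2 listed starts, and chr13:47043249-47043498 on the plus strand for Kdm1b. Of the 49 genes 35 matched the table.
Prdm16: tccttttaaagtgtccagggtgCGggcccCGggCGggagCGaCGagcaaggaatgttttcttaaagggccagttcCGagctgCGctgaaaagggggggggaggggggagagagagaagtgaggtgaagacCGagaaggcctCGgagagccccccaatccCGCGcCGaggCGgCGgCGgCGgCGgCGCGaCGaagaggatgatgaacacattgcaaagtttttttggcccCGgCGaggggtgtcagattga
Prdm1: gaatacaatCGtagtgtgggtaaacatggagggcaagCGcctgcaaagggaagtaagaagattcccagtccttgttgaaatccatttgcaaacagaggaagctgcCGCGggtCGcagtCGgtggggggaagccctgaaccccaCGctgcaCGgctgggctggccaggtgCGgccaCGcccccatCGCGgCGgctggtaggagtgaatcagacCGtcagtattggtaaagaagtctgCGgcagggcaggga
Prdm9: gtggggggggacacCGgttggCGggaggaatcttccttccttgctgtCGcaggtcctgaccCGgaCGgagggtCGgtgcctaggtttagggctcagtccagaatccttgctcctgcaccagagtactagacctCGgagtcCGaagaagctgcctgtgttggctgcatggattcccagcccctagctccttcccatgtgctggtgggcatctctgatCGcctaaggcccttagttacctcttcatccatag
Kdm1b: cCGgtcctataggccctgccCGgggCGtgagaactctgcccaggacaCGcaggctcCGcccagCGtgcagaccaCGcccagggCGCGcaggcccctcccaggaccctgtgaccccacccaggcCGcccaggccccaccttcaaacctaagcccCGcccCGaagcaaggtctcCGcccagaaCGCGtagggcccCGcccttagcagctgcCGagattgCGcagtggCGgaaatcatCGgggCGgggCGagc

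The 49 promoters of the 35 matched genes, some of which have several starts, were rich in CpG, with a median of 20 in 250 bases against 6 over all 32851 promoters of the table. Those of Prdm16 and Kdm1b held 22 each, a number that 14.8% of all promoters reached, that of Prdm1 held 15 and that of Prdm9 held 9. A form of the NF-kB motif, GGGA and CC with any 4 bases between them, was searched on both strands, as were the motifs below. It occurred in 28.6% of these promoters, or 14 promoters of 11 genes, and in 17.6% of all. Of the 4 shown, only that of Kdm1b held it. TGANTCA, a form of the AP-1 motif, occurred in 8.16% of these and 6.75% of all and stood in that of Prdm1. GGAATG, the TEAD motif, occurred in 8.16% of these and 12.6% of all and stood in that of Prdm16. A match is a run of letters and not a measured site. The median share of G and C was 62.4% in these promoters and 52.4% in all. The part of this difference, and of several starts per gene, in the motif shares was not tested.

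The 12 PRDM genes held 3 of the 4 that fell, or 25% of their number, against 11.7% of all tested probe sets lower in KO. In either direction 25% of them passed, against 26.7% of all tested probe sets. Prdm16, known for fixing the brown fat fate and for work in stem cells, read 6.40, 6.15, 5.69, 6.15 and 5.396 on KO arrays 1 to 5, against 8.10, 7.02, 7.06, 7.33 and 7.05 on WT arrays 1 to 5. Every KO array lay below every WT array. The KO minus WT change was -1.35 (standard error 0.24; limma, adjusted p = 0.00127). No KO array and 1 WT array exceeded the 95th percentile of the negative controls for this gene, so no fold is given.

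Prdm1, also called Blimp1, read 4.01, 4.40, 3.51, 4.33 and 3.87 on the KO arrays, against 4.48, 4.80, 4.52, 5.57 and 5.75 on the WT arrays. The groups did not overlap, although KO array 2 and WT array 1 were close, and WT arrays 4 and 5 made up most of the height. The KO minus WT change was -0.998 (standard error 0.27; limma, adjusted p = 0.0174). Both groups were dim: 1 KO array and 3 WT arrays exceeded the median of the negative controls and none exceeded their 95th percentile, so no fold is given. Beside it, all 9 genes of the weaned enterocyte that passed, of 10 measured, were lower in KO, with a median change of -5.42 over the list. In KO, Mgam on 1 array was the only one of these 9 above the 95th percentile of the negative controls, so that median has no exact fold. On the suckling enterocyte list, 5 of 13 measured genes fell and 1, the protease Ctsl, rose. Beside both lists, 11.7% of all tested probe sets fell and 15% rose. Among the 5 suckling genes that fell, Fcgrt did not pass in 8 of 10 fits with 1 array left out. Cps1 averaged 4.30 in KO and 11.90 in WT, and Fbp1 4.87 in KO and 9.58 in WT, both above the 95th percentile of the negative controls on all 5 WT arrays and no KO array. Ctsl averaged 9.89 in KO and 6.95 in WT, above it on all 5 KO arrays and no WT array. Prdm1 is also a plasma cell factor, and the plasma cell markers Jchain and Mzb1 lay below the 95th percentile of the negative controls on all 10 arrays. Prdm1 itself did so too, so this level does not separate it from them. The part of plasma cells in the Prdm1 values was not tested.

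Prdm9, which marks sites of recombination in meiotic germ cells by methylating H3K4 there, read 6.66, 5.97, 6.26, 6.39 and 6.61 on the KO arrays, against 7.28, 7.07, 7.12, 8.02 and 6.996 on the WT arrays. The groups did not overlap, and WT array 4 stood above the other WT arrays. The KO minus WT change was -0.92 (standard error 0.20; limma, adjusted p = 0.00509). It was 1 array, again of WT, that exceeded the 95th percentile of the negative controls.

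The other 9 PRDM genes did not pass. Their changes ran from -0.22 for Prdm13, a factor of the nervous system, to 0.34 for Prdm2, a zinc finger protein linked to H3K9 methylation. Prdm4 was the only one above the 95th percentile of the negative controls on all arrays. It averaged 8.39 ± 0.16 in KO and 8.07 ± 0.17 in WT (SD, n = 5 each), a change of 0.32 with a 95% interval of 0.07 to 0.58 (limma, adjusted p = 0.0584). It passed without KO replicate 1 (limma, adjusted p = 0.0402) and without WT replicate 1 (limma, adjusted p = 0.0205). Prdm14, a factor of germ cells and pluripotent cells, averaged 4.74 in both groups, inside the span of the array medians of the negative controls.

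**Figure D2:**
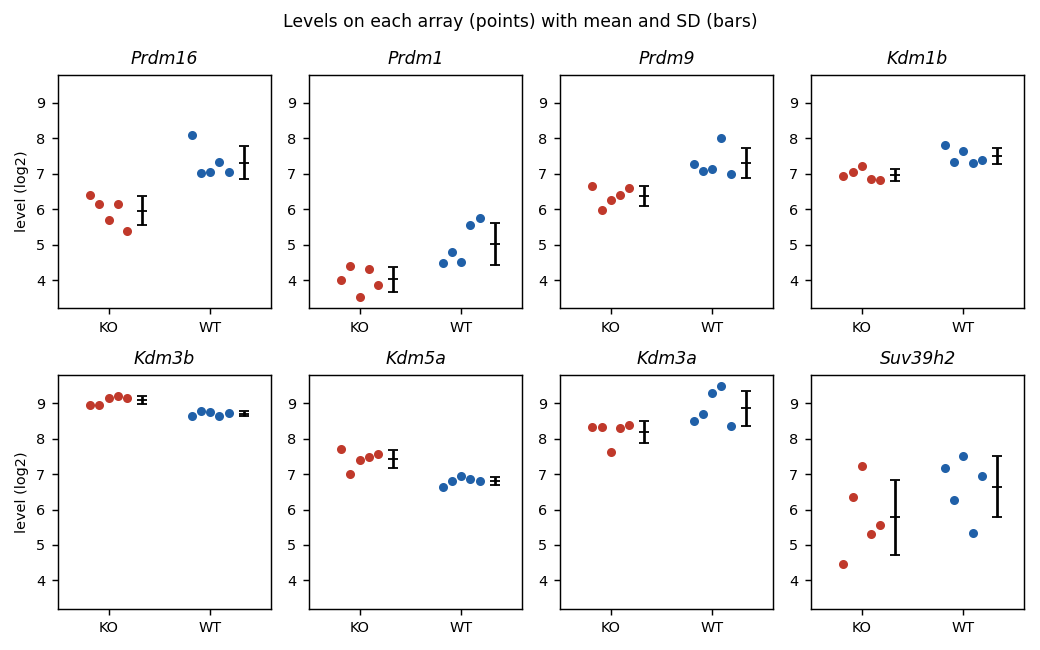
Level on each array on the log2 scale for the 6 genes that passed and for Kdm3a and Suv39h2, with KO left of WT in each panel. Points are arrays and bars the mean and SD (n = 5 each). In the first 6 panels no KO point lies among the WT points, and Suv39h2 spreads widely in both groups.

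Of the flavin-dependent demethylases, which remove mono- and dimethyl marks from H3K4, Kdm1b fell and Kdm1a did not pass. Kdm1b, needed in mouse oocytes to set maternal imprints, read 6.92, 7.05, 7.23, 6.85 and 6.82 on the KO arrays, against 7.82, 7.33, 7.63, 7.30 and 7.39 on the WT arrays. All KO arrays lay below all WT arrays, the closest pair being KO array 3 and WT array 4. The KO minus WT change was -0.52 (standard error 0.13; limma, adjusted p = 0.0108). With 1 KO and 3 WT arrays above the 95th percentile of the negative controls, its level was near theirs. Kdm1a, the LSD1 enzyme of the CoREST complex, read 8.94, 8.73, 8.61, 8.74 and 8.65 on the KO arrays, against 8.90, 8.45, 8.63, 8.05 and 8.43 on the WT arrays. These groups overlapped, and the change was 0.24 with a 95% interval of -0.08 to 0.56 (limma, adjusted p = 0.272).

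Both genes that rose were JmjC demethylases, 2 of 13 or 15.4%, against 15% of all tested probe sets higher in KO. Kdm5a, which removes the trimethyl mark of H3K4, read 7.70, 7.004, 7.39, 7.47 and 7.55 on the KO arrays, against 6.64, 6.79, 6.94, 6.86 and 6.80 on the WT arrays. The WT arrays were tight, and KO array 2 was the nearest to them without reaching them. The KO minus WT change was 0.62 (standard error 0.13; limma, adjusted p = 0.0040). Only 1 KO array and 0 WT arrays exceeded the 95th percentile of the negative controls, so no fold is given. Kdm3b, which removes mono- and dimethyl marks from H3K9, read 8.96, 8.96, 9.14, 9.19 and 9.14 on the KO arrays, against 8.63, 8.77, 8.76, 8.65 and 8.72 on the WT arrays. Its change of 0.37 (standard error 0.09) was small but outside the spread of both groups (limma, adjusted p = 0.00957).

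The other 11 JmjC genes did not pass. Kdm3a, an H3K9 demethylase known as a target of hypoxia-inducible factors, read 8.31, 8.32, 7.61, 8.29 and 8.38 on the KO arrays, against 8.50, 8.69, 9.28, 9.48 and 8.36 on the WT arrays. KO array 3 stood far below the other KO arrays, and WT arrays 3 and 4 were high. The change of -0.68 (standard error 0.23) missed the threshold (limma, adjusted p = 0.0509). It passed without WT replicate 1 (limma, adjusted p = 0.0419) or WT replicate 5 (limma, adjusted p = 0.0291). Beside it, the hypoxia response genes had their lowest mean, centred on all arrays, at -0.74 on KO array 3 and stood at 0.79, 0.30, 0.08 and 0.01 on KO arrays 2, 1, 4 and 5. On WT arrays 1 to 5 they stood at -0.01, -0.47, 0.13, 0.49 and -0.58. Of these 18 hypoxia genes 4 rose and 0 fell (limma), against 15% and 11.7% of all tested probe sets. At an unadjusted p under 0.05 (limma) stood 11 of the 18, against 7150 of the 19572 tested probe sets. The 4 that rose were the prolyl hydroxylases Egln3 and P4ha2, the hexokinase Hk2 and the mTOR inhibitor Ddit4. Leaving out KO replicate 2 gave 4 that fell, and leaving out KO replicate 1 or WT replicate 5 gave 1. The part of this list in the Kdm3a values was not tested.

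Kdm4a, which acts on trimethylated H3K9 and H3K36, had KO values of 8.42 to 8.74 above WT values of 7.90 to 8.39 with no overlap, yet missed the threshold (change 0.35, limma, adjusted p = 0.0521). It passed without WT replicate 3 (limma, adjusted p = 0.0389) or WT replicate 5 (limma, adjusted p = 0.0445). Kdm5b, the second H3K4 demethylase of its kind measured here, changed by 0.49 with a 95% interval of 0.01 to 0.97 (limma, adjusted p = 0.125) and passed without WT replicate 4 (limma, adjusted p = 0.0462). Kdm6b, the H3K27 demethylase that NF-kB is known to switch on in macrophages, read 9.17, 9.37, 8.76, 9.22 and 9.36 on the KO arrays, against 9.66, 9.08, 8.99, 9.58 and 8.97 on the WT arrays. The groups overlapped, and the 95% interval of its change was -0.46 to 0.30. Kdm2b, which binds unmethylated CpG and brings in polycomb complexes, changed by 0.23 with a 95% interval of -0.19 to 0.65. Kdm2a, Kdm4b, Kdm4c, Kdm4d, Kdm7a and Kdm8 changed by -0.07 to 0.19.

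None of the 22 SET domain genes outside the PRDM group passed, against 26.7% of all tested probe sets. At an unadjusted p under 0.05 (limma) stood 3 of the 22, against 7150 of the 19572 tested probe sets. The changes of the 22 genes ran from -0.86 to 0.27, with a median of 0.03. Among the H3K4 writers, Setd1b read 8.17, 8.06, 8.43, 8.45 and 8.24 on the KO arrays, against 9.10, 9.22, 8.54, 8.20 and 8.76 on the WT arrays. WT array 4 lay within the KO range and the other WT arrays above it. The change was -0.50 (limma, adjusted p = 0.0692), and without WT replicate 4 it passed (limma, adjusted p = 0.0115). Kmt2c and Kmt2d, which methylate H3K4 at enhancers, changed by -0.38 and -0.18, and Setd1a and Kmt2b by 0.27 and 0.26. Kmt2c passed without KO replicate 1 (limma, adjusted p = 0.0142) and Kmt2b without WT replicate 1 (limma, adjusted p = 0.0463).

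Writers of H3K36 and H4K20 stayed nearest to 0. Setd2, the H3K36 trimethylase, changed by 0.05, and Nsd1, Nsd2 and Nsd3, which place its dimethyl mark, by 0.15, -0.17 and -0.02. Kmt5a, Kmt5b and Kmt5c, the H4K20 writers, changed by -0.02, 0.07 and 0.01. For these 7 genes the widest 95% interval was that of Nsd2, at -0.77 to 0.43, so changes of over 2-fold lie outside every interval.

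The H3K9 writers Ehmt1, Ehmt2 and Setdb1 were slightly higher in KO without passing. Ehmt2 read 9.41 to 9.62 in KO and 9.13 to 9.39 in WT with no overlap, a change of 0.22 (limma, adjusted p = 0.112), and with Kdm4a it was 1 of 2 genes whose groups stood apart without a call. In all, the groups did not overlap for 8 of the 49 genes, or 16.3%, against 21.4% of all tested probe sets. KO lay above WT for 4 of them and below for 4, against 12.3% and 9.07% of all tested probe sets. Setdb1, which silences endogenous retroviruses, changed by 0.14 with a 95% interval of -0.13 to 0.41.

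Suv39h2, a trimethylase of H3K9 in heterochromatin, spread more than any other of the 49 genes, with an SD of 1.05 in KO and 0.87 in WT. It read 4.46, 6.35, 7.23, 5.32 and 5.55 on the KO arrays, against 7.17, 6.28, 7.52, 5.32 and 6.94 on the WT arrays. The change of -0.86 had a 95% interval of -1.995 to 0.27 (limma, adjusted p = 0.261), so neither no change nor a change of over 2-fold was outside it. Only 1 KO array and 1 WT array exceeded the 95th percentile of the negative controls for Suv39h2. On KO array 1 it lay below their median of 5.10, so its size and spread are not exact. The centred mean of the 22 measured proliferation genes was -0.90, 0.45, 0.98, -1.02 and -1.67 on KO arrays 1 to 5 and 0.74, 0.43, 1.02, -0.68 and 0.66 on WT arrays 1 to 5. KO array 3 and WT array 3 held the highest value of their group in both measures, and WT array 4 the lowest WT value in both. The lowest KO values did not fall on the same array: Suv39h2 was lowest on KO array 1 and the proliferation mean on KO array 5. All 22 had a negative change, against 10203 of the 19572 tested probe sets. Only Pcna, the replication clamp, passed (change -0.78, limma, adjusted p = 0.0453), where 11.7% of all tested probe sets passed lower in KO. The count of proliferation genes that fell was 7 without KO replicate 3. It was 0 when KO replicate 1, 4 or 5, or WT replicate 1, 2, 3 or 5, was left out. The part of proliferation in the Suv39h2 values was not tested.

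The remaining SET proteins did not pass. Setd7, which monomethylates H3K4 and many other proteins, changed by 0.26 with a 95% interval of -0.05 to 0.58. Setd6, which methylates the NF-kB subunit RelA, read 7.38 to 8.24 in KO and 7.45 to 8.46 in WT, with a change of -0.11 and a 95% interval of -0.57 to 0.34. Setd3, a histidine methyltransferase of actin, Setd5 and Kmt2e changed by -0.11, 0.09 and 0.14, and Setd4 by -0.29.

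**Figure D3:**
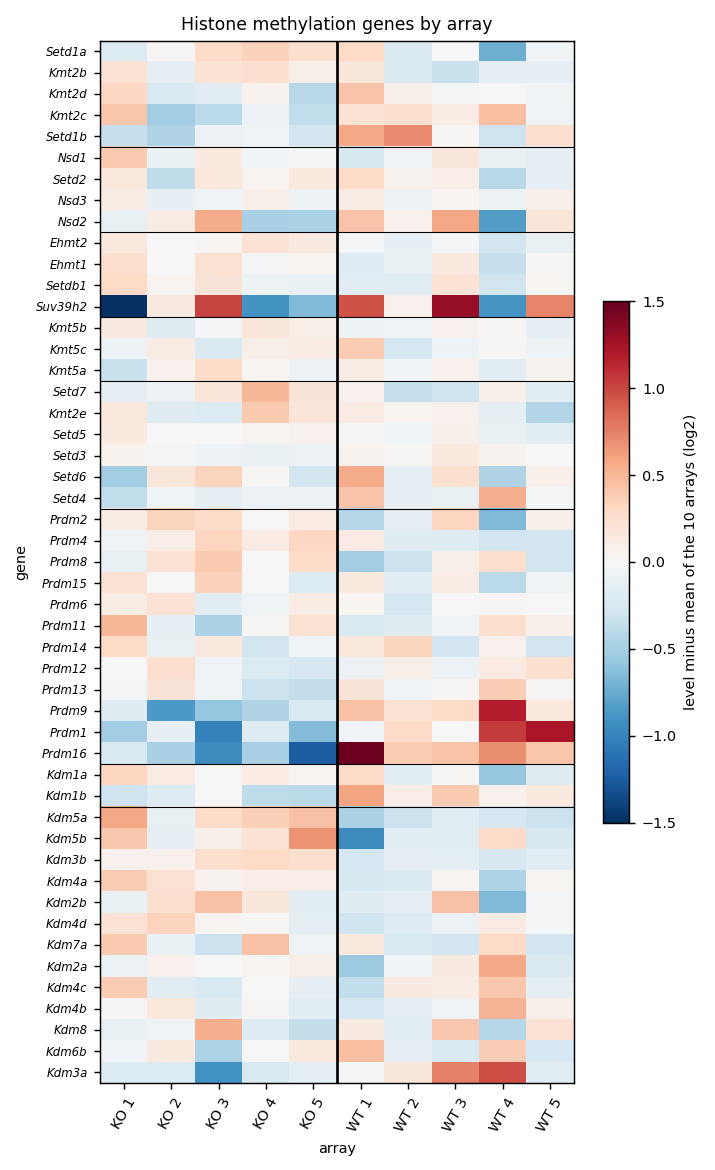
Level of each gene on each array, less its mean over the 10 arrays, on the log2 scale, with the KO arrays left of the WT arrays and lines between the activity groups. Colour ends at 1.5 to each side, and Suv39h2 on KO array 1 lies beyond it at -1.75. WT 4 often differs from the other WT arrays.

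WT array 4 was the highest or the lowest WT array for 32 of the 49 genes, and WT array 1 for 28, while WT arrays 2, 3 and 5 were so for 10, 16 and 12. Among KO arrays this count ran from 14 to 25. Without WT replicate 4 the 6 of the 49 genes that passed kept their call. Kdm5b (limma, adjusted p = 0.0462) and Setd1b (limma, adjusted p = 0.0115) then passed as well. The median SD of the 49 genes was 0.21 in KO and 0.23 in WT, against 0.20 and 0.21 over all tested probe sets.

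Related genes did not always move alike. Of 16 pairs of close relatives 14 were measured, and the KO minus WT change was compared within each pair as the difference between their levels on the same array. Only that difference across groups was used, since levels of separate probe sets have no common scale. For 3 pairs the changes differed (exact two-sided permutation test, adjusted p = 0.037 over the 14 pairs, with p = 0.00794, the smallest that splits of these arrays allow). 4 pairs had an unadjusted p under 0.05. Setd1a less Setd1b was -0.22, 0.12, 0.01, 0.05 and 0.16 on the KO arrays, against -0.64, -1.29, -0.37, -0.78 and -0.65 on the WT arrays, so the changes of these H3K4 writers lay 0.77 apart. Kdm1a less Kdm1b was 2.01, 1.69, 1.38, 1.89 and 1.82 on the KO arrays, against 1.08, 1.12, 0.996, 0.75 and 1.04 on the WT arrays, a distance of 0.76. Kdm3a less Kdm3b was -0.64, -0.64, -1.52, -0.90 and -0.77 on the KO arrays, against -0.13, -0.08, 0.52, 0.84 and -0.36 on the WT arrays, a difference of -1.05. In each of the 3 pairs the groups did not overlap.

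With 1 array left out the permutation test called 0 pairs, except without WT replicate 3, where it called 3: Setd1a with Setd1b, Kdm3a with Kdm3b, and Kdm4a with Kdm4b in place of Kdm1a with Kdm1b. The pairs that lost their call had adjusted p-values of 0.0556 to 0.0741 by the exact permutation test. The differences kept their direction throughout, at 0.64 to 0.86, 0.70 to 0.86 and -1.18 to -0.88 in the order above. As an alternative chosen after seeing the data, limma was run on the same differences. It called 3 pairs with all arrays and 3 with any 1 array left out. That fit drew part of its variance estimate from all probe sets, which are single levels and not differences of 2. The effect of this on the calls and intervals was not tested. By limma the 95% intervals were 0.43 to 1.12, 0.47 to 1.05 and -1.59 to -0.51. Kdm4a and Kdm4b lay 0.40 apart and missed the threshold (exact permutation test, adjusted p = 0.0556 over the 14 pairs). Kdm5a and Kdm5b, both higher in KO on average, differed in their change by 0.13 with a 95% interval of -0.25 to 0.50 by limma. Ehmt1 and Ehmt2 differed by -0.02, with an interval of -0.27 to 0.22.

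**Figure D4:**
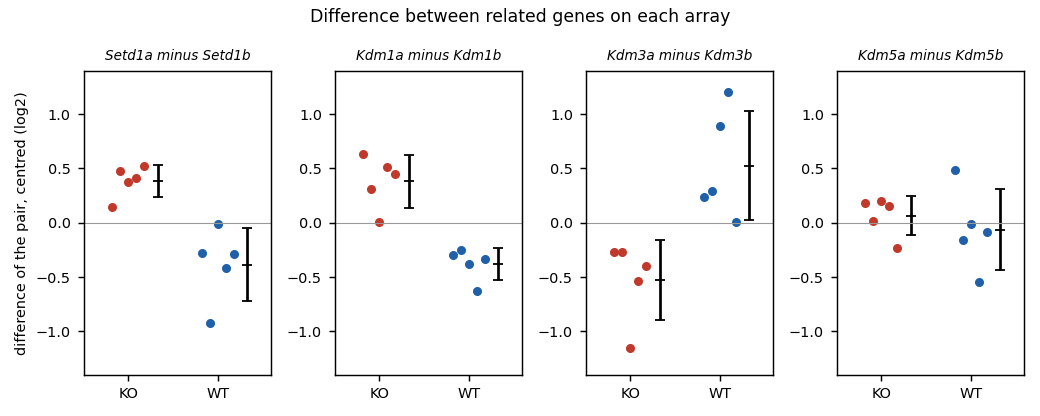
Difference between the log2 levels of 2 related genes on each array, centred on the mean of the 10 arrays, for the 3 pairs whose changes differed and for Kdm5a with Kdm5b. KO stands left of WT; points are arrays and bars the mean and SD (n = 5 each). KO and WT points are apart in the first 3 panels and mixed in the last.

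Partners of these enzymes were followed as lists. Of 13 partners in COMPASS and MLL complexes, which carry the H3K4 writers, 1 fell and 0 rose (limma; 2 had an unadjusted p under 0.05). This was the acetyltransferase Kat8 (-0.31), and the number was 2 without KO replicate 3 or WT replicate 4 and 0 without any 1 of the other arrays but KO replicate 2. Of 10 further genes, mostly lysine methyltransferases, 0 passed (limma; 2 had an unadjusted p under 0.05), and without KO replicate 2 1 rose. Of 10 genes of arginine methyltransferases and their partners 0 passed too (limma; 0 had an unadjusted p under 0.05). Of 11 PRC2 genes, the complex that methylates H3K27, the accessory subunit Jarid2 (-0.67) and the core subunit Suz12 (-0.55) fell and Phf1 (0.56) rose. Phf1 did not pass when 1 array was left out from KO replicates 1, 4 and 5 or WT replicates 1, 2 and 3 (limma, adjusted p at most 0.0681), and without KO replicate 3 or WT replicate 4 the number that rose was 2.

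Of 13 measured genes of the LSD1 and CoREST list 2 rose, 2 fell and 9 did not pass. Phf21a, a reader of unmethylated H3K4 in the complex, averaged 8.81 ± 0.40 in KO and 7.57 ± 0.28 in WT (SD, n = 5 each), a change of 1.24 (limma, adjusted p = 0.000559). Insm1, an endocrine factor that recruits LSD1, averaged 4.98 ± 0.12 in KO and 6.19 ± 0.33 in WT (SD, n = 5 each), a change of -1.21 (limma, adjusted p = 8.99e-05). It exceeded the 95th percentile of the negative controls on 0 of 10 arrays, as did Gfi1, so the size of neither change is exact. Gfi1, a factor of secretory cells that also recruits LSD1, changed by -0.43 and Zmym3 by 0.55. Gfi1 did not pass without WT replicate 2, leaving 1 that fell, and Zmym3 did not with 1 of 7 arrays left out, namely KO replicates 1, 4 and 5 and WT replicates 1, 2, 4 and 5.

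Of 13 partners and readers of H3K9 methylation 2 rose and 0 fell, the HUSH subunit Tasor (0.73) and Cdyl2 (0.44). Cdyl2, which like Tyw5 below exceeded the 95th percentile of the negative controls on 0 of 10 arrays, did not pass when KO replicate 2, 3, 4 or 5, or WT replicate 2, 3 or 5, was left out. Of 11 other JmjC genes Tyw5 (0.73) rose and the nucleolar Riox1 (-0.78) fell. Leaving out KO replicate 5 or WT replicate 1 left Tyw5 without a call, and 2 genes fell without KO replicate 2. In these 7 lists the share that passed ran from 0% to 30.8%, against 26.7% of all tested probe sets.

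**Figure D5:**
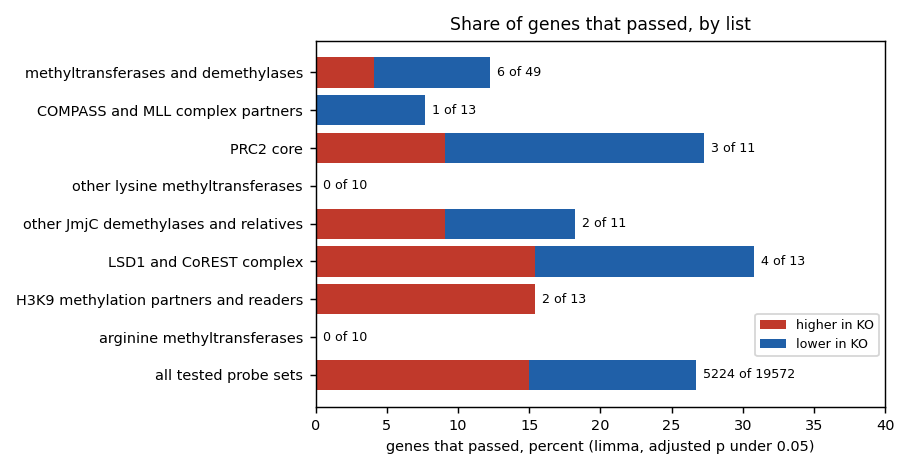
Share of measured genes that passed (limma, adjusted p under 0.05), in percent, for the 49 methyltransferase and demethylase genes, the 7 lists of partners and relatives, and all tested probe sets. Red is higher and blue lower in KO, with the numbers beside each bar; 6 of 49 passed against 5224 of 19572.

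Of the relatives on the sex chromosomes, the Y-linked Kdm5d and Uty fell, the X-linked Kdm6a rose and the X-linked Kdm5c did not pass. Kdm5d, the Y-linked H3K4 demethylase, read 3.46, 4.14, 3.64, 3.69 and 3.91 on the KO arrays, against 6.53, 6.66, 6.26, 4.92 and 6.56 on the WT arrays. WT array 4 stood below the other WT arrays, and no KO array reached it. No array of either group exceeded the 95th percentile of the negative controls for Kdm5d. Uty, the Y-linked relative of Kdm6a, averaged 3.38 ± 0.09 in KO and 7.84 ± 0.50 in WT (SD, n = 5 each). Of the X-linked genes, the H3K27 demethylase Kdm6a averaged 9.98 ± 0.27 in KO and 9.51 ± 0.23 in WT (SD, n = 5 each), and its groups overlapped. Its change was 0.47 (limma, adjusted p = 0.0389). Kdm5c changed by 0.23 with a 95% interval of -0.02 to 0.48 (limma, adjusted p = 0.172). Low Y-linked signal was on all 5 KO arrays, so for each of the 49 genes it cannot be told apart from the KO label.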

How the data were processed

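The files hold, for each array, a log2 value per probe set that the authors deposited. The submitters' processing notes name RMA, a summary of probe brightness after background correction and quantile scaling, and limma. Per the labels' protocols, RNA (100 ng a sample) went through the GeneChip WT PLUS kit with a biotin label. Builds and tool versions are not named there. Of 28846 probe sets, 19572 were paired with 1 symbol.

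For KO against WT, limma 3.58.1 under R 4.3.3 fitted all probe sets with 1 term for the group, and p-values were adjusted by Benjamini-Hochberg over the 19572. Intervals are at 95%. Where a gene had several probe sets, the one with the highest mean was used. Pairs of related genes were compared by exact permutation over the arrays. Every gene of the group was reported. Described singly were the up to 10 highest and 10 lowest that passed, Kdm1a, Kdm2b, Kdm6b, Setd6, Setd7, Setdb1, Prdm1, Prdm16, Ehmt2, Suv39h2 and pairs whose changes differed, with Nfkbia and sex-linked relatives. Of each partner list, up to 4 passing genes with the smallest p were eligible. The choice of Kdm4a, Kdm5b, Prdm4, Jchain and Mzb1 for single mention was made with their values in view. The genes, lists and pairs were chosen with earlier results of these data known. Deviations of same-numbered KO and WT arrays correlated at -0.066 to 0.36, and those of differently numbered arrays at -0.40 to 0.16. The highest were 0.36 for the replicates numbered 3 and 0.18 for those numbered 4. The labels tie no numbers, so arrays were not paired. On simulated data with the 19572 probe sets, 30% of changes of 0.5, 80% of 1 and 94% of 2 on the log2 scale were recovered. There a far smaller share of probe sets was changed than the 26.7% that passed here. Adjusted p-values depend on that share, so these rates do not carry over to the comparison. Alternatives changed the scaling, filter, variance model, weights, arrays, adjustment, probe set rule and threshold. Python 3.11.15 with matplotlib 3.10.9 made the tables and figures. The number of arrays limits precision.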

Additional observations from a re-analysis of the deposited data

Results flagged for a closer look

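Within groups of 5 arrays, 1 value stood far from the other 4 in 9 of 110 groups examined (gap over range above Dixon's 0.71); chance gives about 1 in 20. On KO arrays these were Kdm3a on array 3 (7.61, ratio 0.884), Setd2 on array 2 (7.61, ratio 0.770) and Setd4 on array 1 (5.74, ratio 0.767), each the lowest. On WT arrays they were Prdm4 (8.35, ratio 0.743) and Kmt2d (8.91, ratio 0.757), both highest on array 1, and Prdm6 lowest on array 2 (5.48, ratio 0.880). WT array 4 held the highest Prdm9 value (8.02, ratio 0.720) and the lowest Kdm5d value (4.92, ratio 0.770), and WT array 5 the highest Nfkbia value (9.85, ratio 0.730).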

How the results depend on the processing

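Of the 49 genes 38 kept their side of the threshold under all 21 alternatives; of the 6 that passed, Prdm16 and Prdm9 passed in all, and Prdm1, Kdm1b, Kdm3b and Kdm5a in all but the test against a 1.2-fold change. Against that change 0 genes rose, 2 fell, and 8 genes of all lists rose where 19 did before. With array weights 5 rose. With 1 array left out 2 to 4 rose, the 4 without WT replicate 1, and 4 to 5 fell. The 7 genes that passed under some alternative and not in the main comparison were Kdm3a, Kdm4a, Kdm5b, Kmt2b, Kmt2c, Prdm4 and Setd1b, and no called change reversed. With the replicate number as a block (replicate block) 2 rose and 4 fell, as without it. The number of differing pairs was 0 to 3 with 1 array left out, 0 without KO replicate 2 and WT replicate 4 together, where the smallest p of 4 against 4 arrays passes only if most pairs reach it, and 0 with paired sign flips (replicate block), where 5 pairs cannot pass; it was 4 with cyclic loess, Kdm4a with Kdm4b being added (exact permutation, adjusted p = 0.0278). Each gene had 1 probe set, so averaging probe sets left the pairs as they were. Levels near the negative controls limit the sizes for Prdm1, Prdm9, Prdm16, Kdm5a, Kdm1b and Suv39h2.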
